A study of Homo sapiens with 24 samples.

Results

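Transcript levels of SAS spheroids given hyperthermia (HT) and then irradiation (RT) were compared with those of untreated SAS spheroids, across all genes. The comparison uses 6 of the 24 libraries of the series, 3 of SAS HT + RT and 3 of SAS Control, taken by their labelled cell line and treatment. The study examined how heating alters what irradiation does to spheroids of head and neck squamous cell carcinoma, and sequenced RNA of the established human lines SAS and FaDu. Each line was sequenced as control, after RT, after HT and after HT + RT, in 3 replicates that its methods give as independent experiments. SAS HT + RT spheroids were heated at 42.5 °C for 60 min and then received a dose of 10 Gy, and SAS Control spheroids received neither. Every spheroid had grown for 4 days over agarose to a mean diameter near 400 µm, and RNA was taken 0.5 h after the treatment. The other libraries used here only place the comparison: SAS after the same heating without irradiation, SAS after 10 Gy without heating, and FaDu as control and after the same heating followed by 7 Gy. Each spheroid was made from a cultured tumor line alone, so it stands for tumor cells in contact with each other and not for a tumor with vessels, stroma and immune cells.

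Heat unfolds proteins, and the heat shock factors then switch on genes of chaperones, which are proteins that hold or refold other proteins. Ionizing radiation breaks DNA, and broken DNA activates repair, the p53 protein and cell cycle checkpoints. Spheroids grow as packed cell aggregates, and their cells differ from flat cultures in oxygen supply and in contacts with neighbours.

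Levels are given in CPM (counts per 1000000 after TMM scaling), listed as replicates 1, 2 and 3, and changes as log2 fold change of HT + RT over control with its standard error. A gene is called altered when its edgeR adjusted p is under 0.05 and its log2 fold change is over 1 in size. The SAS Control libraries held 19645956, 18201500 and 17797336 counts (median 18201500), and the SAS HT + RT libraries held 16123061, 20981315 and 20935069 (median 20935069). Depth therefore overlapped between the groups, with the first HT + RT library the shallowest. Genes with at least 1 count numbered 21791, 22021 and 22441 in control and 23031, 23844 and 24709 after HT + RT, so every treated library showed more genes than every control library. The first principal component of the 6 libraries held 71.7% of the variance and set the groups apart, at -42.4, -38 and -39.3 for control and 40.2, 39 and 40.6 for HT + RT. The second component held 9.6% and set replicate 3 of each group apart from the other replicates.

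The labelled origin was checked with marker genes. Summed over 12 squamous epithelial markers, the control libraries gave 5490, 5250 and 5980 CPM and the HT + RT libraries 5250, 5160 and 5540 CPM. The most abundant of them, KRT17, a keratin of stressed and tumor epithelium, had 1420, 1470 and 1590 CPM in control and 1520, 1650 and 1680 CPM after HT + RT. KRT5, the keratin of basal squamous cells, had 1250, 1140 and 1260 CPM in control and 1240, 1160 and 1230 CPM after HT + RT. All 6 libraries thus held high levels of squamous markers, and the sum, KRT5 and KRT17 overlapped between the groups. Of the 12 markers 5 did not overlap, a share near the 41.6% of all tested genes without overlap. Only 1 marker was called, beside 6.36% of all tested genes. It was KRT16, a keratin of stressed epithelium, at log2 1.13, which is at 0.90 and not called without SAS Control replicate 3.

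Markers of other cell types lay far below the squamous markers, and some had 0 counts. Of the immune markers, PTPRC, the surface protein of all white blood cells, had 0 counts in every library, and the summed level was 11.1, 8.72 and 10.2 CPM in control and 10.3, 9.1 and 9.27 CPM after HT + RT, most of it from CD14. The endothelial marker KDR, a receptor of vessel cells, had 0 counts, and the summed level was 17.7, 20.7 and 10.9 CPM in control and 18.4, 23 and 11.5 CPM after HT + RT, most of it from CDH5. Of the fibroblast markers only COL1A1, a chain of type I collagen, had enough counts to be tested, at 1.2, 0.969 and 1.83 CPM in control and 24.4, 24.1 and 23.7 CPM after HT + RT (log2 4.23, standard error 0.18, edgeR adjusted p = 1.2e-08). Its partner chain COL1A2 had 4 counts in the control group and 6 after HT + RT, COL3A1 of type III collagen had 1 and 0, and the matrix gene DCN had 1 and 1. COL1A1 thus rose without the other fibroblast genes, in spheroids seeded from tumor cells alone.

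HT + RT altered a small share of the transcriptome, in RNA taken 0.5 h after a treatment with 60 min of heating, and most of the altered genes rose. The largest changes were in chaperone genes, several of which went from near absent to abundant. Falls were fewer and smaller. Of 14938 tested genes, 950 (6.36%) were altered, 861 (5.76%) upward and 89 (0.596%) downward. The median log2 change was 0.00 over all tested genes, 1.81 over the genes altered upward and -1.15 over those altered downward. The CPM of the groups did not overlap for 945 of the 950 altered genes and overlapped for 5. Without overlap between the groups were 6221 of all tested genes (41.6%), most of them with small differences. An adjusted p under 0.05 alone was reached by 3747 genes (25.1%), 2035 (13.6%) higher and 1712 (11.5%) lower after HT + RT.

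The rises and falls differed in size. Upward, 490 genes lay between log2 1 and 2, 174 between 2 and 3, 140 between 3 and 5 and 57 above 5. Downward, 88 of the 89 lay between -1 and -2, and 1 gene fell further. The genes altered upward made up 1.27%, 1.28% and 1.21% of all counts in control and 5.64%, 5.53% and 5.8% after HT + RT. After HT alone their share was 5.15%, 5.14% and 5.54%, and after RT alone 1.31%, 1.34% and 1.2%. The genes altered downward made up 0.201%, 0.208% and 0.212% of all counts in control and 0.082%, 0.0941% and 0.0822% after HT + RT. Many rises started from very little: 331 of the genes altered upward had 30 counts or fewer over the 3 control libraries, and 16 had 0. With those 16 genes set at the lower bound of their fold change the upward median stayed 1.81.

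**Figure D1:**
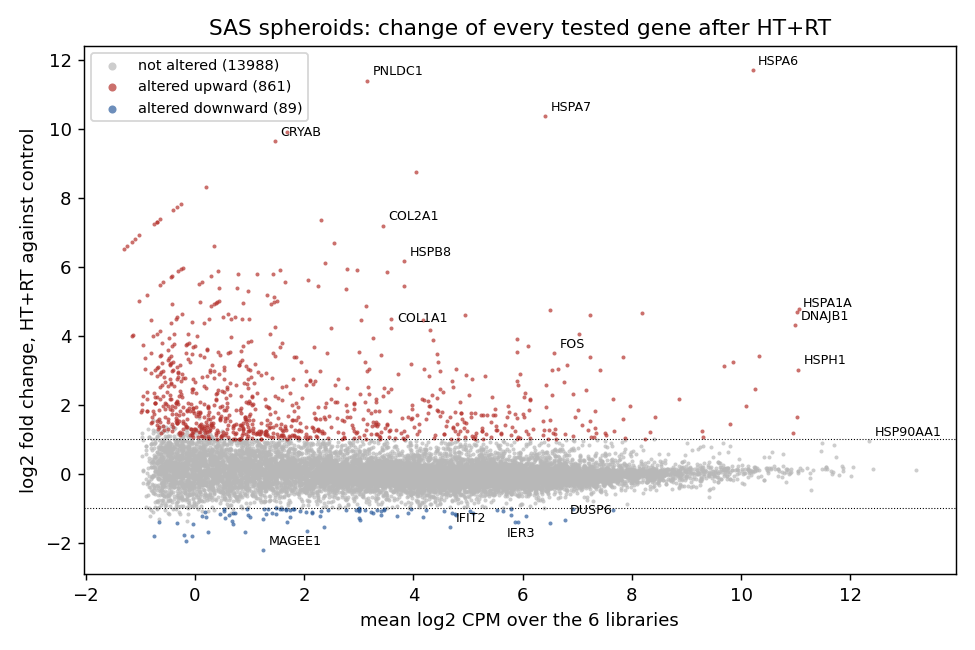
Log2 fold change of HT + RT over control against mean log2 CPM for each tested gene of SAS spheroids, with altered genes in red (upward) and blue (downward). Rises reach further from the zero line than falls, and the dotted lines mark log2 1 and -1.

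The highest upward genes were silent or nearly silent in control spheroids. HSPA6, a strictly inducible HSP70 chaperone, had 0.87, 0.342 and 1.06 CPM in control and 2310, 2400 and 2700 CPM after HT + RT (log2 11.71, standard error 0.15, edgeR adjusted p = 1.2e-12). Its near identical neighbour HSPA7, annotated as a pseudogene, had 0.272, 0 and 0.118 CPM in control and 184, 174 and 174 CPM after HT + RT (log2 10.37, standard error 0.19, edgeR adjusted p = 1.3e-11). The log2 change of HSPA7 runs from 9.81 to 11.45 when 1 library is left out. Reads of HSPA6 and HSPA7 are hard to tell apart, so part of the HSPA7 counts may come from HSPA6. Every treated library stood far above every control library for both genes. PNLDC1, which encodes an RNA trimming nuclease of the germ line, had 0 counts in all control libraries and 20.4, 15.8 and 19.8 CPM after HT + RT, which is at least 329-fold higher (edgeR adjusted p = 5.9e-08). RFPL2, a gene of the RING finger family, had 0 counts in control and 7.99, 4.47 and 7.41 CPM after HT + RT, at least 117-fold higher (edgeR adjusted p = 5.9e-06). These bounds set the control at a floor of 3 counts over the group, and such floors cover counting error only. No control library held a read of either gene, and all treated libraries did.

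Genes without a chaperone role stood beside the chaperones. COL2A1, the collagen of cartilage, had 0, 0.228 and 0.236 CPM in control and 20.4, 22.8 and 23.9 CPM after HT + RT (log2 7.19, standard error 0.30, edgeR adjusted p = 1.2e-08). RFTN2, a lipid raft protein gene, had 0.0544, 0.057 and 0.236 CPM in control and 12.6, 8.22 and 15.1 CPM after HT + RT (log2 6.68, standard error 0.42, edgeR adjusted p = 4.2e-07). Control libraries were near 0 for both genes, and no treated library came close to them. With 1 library left out COL2A1 runs from log2 6.59 to 7.61 and RFTN2 from 6.33 to 7.63.

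Measured in CPM, which is not corrected for gene length, the largest rises among altered genes included those of HSPA1B, HSPA1A, DNAJB1, HSPH1, HSPA6, SERPINH1, HSPB1, IER5 and HSPD1. SERPINH1, the collagen chaperone of the endoplasmic reticulum (ER), had 243, 243 and 228 CPM in control and 2370, 2300 and 2660 CPM after HT + RT (log2 3.41, standard error 0.06, edgeR adjusted p = 1.3e-11). Its treated values were all above its control values by a wide margin.

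The cytosolic HSP70 and HSP110 genes encode the chaperones that bind unfolded chains and their exchange partners. Most of them rose, the inducible members by far the most. Of 10 tested members 7 rose and 0 fell, with a median log2 change of 2.80 beside 0.00 over all tested genes. Demanding at least 10 counts in every library left 9 members, 6 risen, and a median of 2.59. HSPA1A, the major inducible HSP70, had 187, 168 and 152 CPM in control and 4250, 4020 and 4400 CPM after HT + RT (log2 4.69, standard error 0.07, edgeR adjusted p = 3.6e-12). HSPA1B, its near identical copy with which it may share reads, had 186, 144 and 157 CPM in control and 4420, 3870 and 4590 CPM after HT + RT (log2 4.78, standard error 0.10, edgeR adjusted p = 2.5e-11). Both copies were low in all control libraries and high in all treated libraries. HSPA1L, an HSP70 of the testis encoded next to them, had 3.15, 2.34 and 3.06 CPM in control and 41, 37.2 and 42.6 CPM after HT + RT (log2 3.87, standard error 0.13, edgeR adjusted p = 1.6e-09). HSPH1, the inducible HSP110, had 531, 550 and 426 CPM in control and 3910, 3810 and 4090 CPM after HT + RT (log2 3.02, standard error 0.08, edgeR adjusted p = 2.7e-10). Neither gene had a treated library within reach of a control library.

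The HSP110 relatives HSPA4L and HSPA4 rose less. HSPA4L had 28.1, 27.1 and 24.5 CPM in control and 133, 151 and 174 CPM after HT + RT (log2 2.57, standard error 0.10, edgeR adjusted p = 4.6e-09). HSPA4 had 418, 399 and 386 CPM in control and 881, 930 and 931 CPM after HT + RT (log2 1.24, standard error 0.05, edgeR adjusted p = 4.8e-09). The constitutive HSPA8 had 2350, 2180 and 2000 CPM in control and 3950, 4000 and 3720 CPM after HT + RT, below the threshold of size (log2 0.89, standard error 0.05, edgeR adjusted p = 3.1e-07). The groups of each of these genes did not overlap. HSPA14, a ribosome bound HSP70, had a log2 change of 0.21 (edgeR adjusted p = 0.028), and HSPA2, an HSP70 of the testis, one of 0.40 (edgeR adjusted p = 0.19).

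Heat shock factors bind inverted repeats of the unit nGAAn. Windows of 300 bases, 250 before to 50 after the annotated start, were searched for 3 units in a row, spelled GAANNTTCNNGAA or TTCNNGAANNTTC, on both strands, with N for any base. Of all 35116 windows 172 (0.49%) hold such a match. Of the lists, 2 of 9 HSP70 and HSP110 genes with a window hold it (HSPA6, HSPA8), 2 of 36 DNAJ genes (DNAJA1, DNAJB6), 3 of 17 HSP90 and co-chaperone genes (CHORDC1, HSP90AA1, HSP90AB1), 1 of 9 mitochondrial chaperone genes (HSPD1), and 0 in every other list, among them 0 of 4 small heat shock protein genes, 0 of 12 chaperonin and prefoldin genes, 0 of 21 ER chaperone genes, 0 of 10 ubiquitin genes and 0 of 28 immediate early genes. A window was available for 54.7% of the genes altered upward and for 77.6% of the protein-coding ones, both under the 80% asked for here, so a comparison of shares with all tested genes is void. Windows of 6 genes that hold a match follow, and that of HSPA1A, which holds 0, chosen after the values were seen. They are copied from the RefSeq annotation of build GRCh38.p14, read along the gene, with the motif in capitals. A match or its absence says nothing here on what switches a gene.

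HSPA6 window, chr1:161524290-161524589, + strand, 1 match, beginning 74 bases before the start.
HSPA6: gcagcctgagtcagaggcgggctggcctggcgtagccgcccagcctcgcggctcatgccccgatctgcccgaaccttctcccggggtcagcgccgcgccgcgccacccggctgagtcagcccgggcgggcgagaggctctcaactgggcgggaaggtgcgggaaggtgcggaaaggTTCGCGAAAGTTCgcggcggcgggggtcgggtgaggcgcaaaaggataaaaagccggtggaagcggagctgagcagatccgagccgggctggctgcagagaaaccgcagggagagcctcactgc
SERPINH1 window, chr11:75562003-75562302, + strand, 1 match, beginning 76 bases before the start.
SERPINH1: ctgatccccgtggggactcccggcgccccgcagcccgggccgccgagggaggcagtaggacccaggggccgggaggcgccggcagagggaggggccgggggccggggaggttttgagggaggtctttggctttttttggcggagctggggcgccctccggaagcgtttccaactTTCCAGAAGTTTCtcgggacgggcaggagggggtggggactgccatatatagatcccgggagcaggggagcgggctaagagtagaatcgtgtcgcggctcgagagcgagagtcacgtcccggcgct
DNAJA1 window, chr9:33025023-33025322, + strand, 1 match, beginning 3 bases after the start.
DNAJA1: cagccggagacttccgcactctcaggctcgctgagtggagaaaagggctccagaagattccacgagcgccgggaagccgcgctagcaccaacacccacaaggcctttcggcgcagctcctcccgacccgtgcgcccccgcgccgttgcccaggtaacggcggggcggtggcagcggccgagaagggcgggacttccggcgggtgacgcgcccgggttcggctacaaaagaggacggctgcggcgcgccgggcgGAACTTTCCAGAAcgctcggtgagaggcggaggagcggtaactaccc
CHORDC1 window, chr11:90223000-90223299, - strand, 3 overlapping matches, the first beginning 60 bases before the start.
CHORDC1: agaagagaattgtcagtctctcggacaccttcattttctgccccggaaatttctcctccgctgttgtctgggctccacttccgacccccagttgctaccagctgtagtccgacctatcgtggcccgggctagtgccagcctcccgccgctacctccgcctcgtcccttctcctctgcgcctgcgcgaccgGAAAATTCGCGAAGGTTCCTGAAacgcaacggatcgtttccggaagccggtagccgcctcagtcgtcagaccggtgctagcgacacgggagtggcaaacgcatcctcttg
HSPD1 window, chr2:197499791-197500090, - strand, 2 overlapping matches, the first beginning 245 bases before the start.
HSPD1: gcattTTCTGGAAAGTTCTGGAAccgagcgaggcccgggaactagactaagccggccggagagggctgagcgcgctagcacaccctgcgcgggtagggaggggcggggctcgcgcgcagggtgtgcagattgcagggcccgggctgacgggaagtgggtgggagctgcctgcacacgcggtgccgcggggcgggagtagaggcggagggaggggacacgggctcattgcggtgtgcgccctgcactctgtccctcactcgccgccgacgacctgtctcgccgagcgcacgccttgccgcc
HSP90AA1 window, chr14:102086995-102087294, - strand, 1 match, beginning 88 bases before the start.
HSP90AA1: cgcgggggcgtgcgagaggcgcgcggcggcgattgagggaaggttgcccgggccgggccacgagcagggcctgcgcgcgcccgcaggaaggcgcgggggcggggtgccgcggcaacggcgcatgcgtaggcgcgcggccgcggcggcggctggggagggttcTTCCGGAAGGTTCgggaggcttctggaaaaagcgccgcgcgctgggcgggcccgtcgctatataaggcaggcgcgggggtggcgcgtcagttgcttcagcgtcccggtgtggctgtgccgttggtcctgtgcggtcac
HSPA1A window, chr6:31815293-31815592, + strand, 0 matches.
HSPA1A: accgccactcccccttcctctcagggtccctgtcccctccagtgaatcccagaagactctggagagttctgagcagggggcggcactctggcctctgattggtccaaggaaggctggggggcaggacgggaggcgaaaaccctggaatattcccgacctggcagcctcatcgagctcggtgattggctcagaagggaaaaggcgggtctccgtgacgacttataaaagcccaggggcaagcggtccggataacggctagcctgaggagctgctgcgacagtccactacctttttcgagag

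Small heat shock proteins hold unfolded chains until other chaperones act. Nearly all of the detected members rose. Of 5 tested, 4 rose and 0 fell, with a median log2 change of 3.59, also with CRYAB at its bound. That median is the value of HSPB9, and with at least 10 counts demanded in every library the list has 2 members, 1 risen, and a median of 1.28. CRYAB, the alpha B crystallin, had 0 counts in the control libraries and 3.4, 6.12 and 6.89 CPM after HT + RT, at least 96.4-fold higher (edgeR adjusted p = 1.3e-05). HSPB8, which works with BAG3 in clearing aggregates, had 0.326, 0.342 and 0.589 CPM in control and 25.4, 27 and 35.1 CPM after HT + RT (log2 6.16, standard error 0.23, edgeR adjusted p = 4.4e-09). HSPB1, the common HSP27, had 394, 391 and 417 CPM in control and 2070, 2080 and 2300 CPM after HT + RT (log2 2.47, standard error 0.06, edgeR adjusted p = 6.4e-11). All 3 genes were higher in every treated library than in any control library. HSPB9, a small heat shock protein of the testis, rose from 0, 0.285 and 0 CPM to 1.33, 0.874 and 1.35 CPM (log2 3.59, standard error 0.72, edgeR adjusted p = 0.0034), and its log2 change runs from 3.00 to 7.42 when 1 library is left out. HSPB2, HSPB3, HSPB6, HSPB7 and CRYAA, small heat shock proteins of muscle or eye lens, had too few counts to be tested.

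DNAJ proteins hand substrates to HSP70. A few of them rose strongly while most stayed near 0. Of 39 tested, 6 rose and 0 fell, with a median log2 change of -0.03. DNAJA4, a DNAJ of the cytosol, had 24.8, 28.8 and 18.9 CPM in control and 594, 554 and 608 CPM after HT + RT (log2 4.65, standard error 0.12, edgeR adjusted p = 2.1e-10). DNAJB4, a cytosolic partner of HSP70, had 14.4, 11.7 and 12.7 CPM in control and 286, 262 and 360 CPM after HT + RT (log2 4.60, standard error 0.13). DNAJB1, the main inducible DNAJ, had 230, 189 and 216 CPM in control and 4060, 3900 and 4140 CPM after HT + RT (log2 4.31, standard error 0.07, edgeR adjusted p = 3.6e-12). None of these genes had overlapping groups. DNAJA1, an abundant cytosolic DNAJ, rose from 543, 482 and 424 CPM to 1840, 1770 and 1830 CPM (log2 1.96, standard error 0.07, edgeR adjusted p = 3.4e-09). The neuronal DNAJB2 (log2 1.19) and the muscle gene DNAJB5 (log2 1.17) completed the 6. Lowest was DNAJC28, a DNAJ of unclear role, at log2 -1.12 with an edgeR adjusted p of 0.071.

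HSP90 and its helpers fold signaling proteins, and BAG proteins release substrates from HSP70. A few helpers rose past the thresholds, while the HSP90 genes stayed below the threshold of size. Of 21 tested, 4 rose and 0 fell, at a median log2 change of 0.28. A further 9 had an adjusted p under 0.05 with a smaller rise, beside 13.6% of all tested genes higher at that adjusted p. BAG3, which links HSP70 to autophagy, had 205, 182 and 167 CPM in control and 1470, 1550 and 1610 CPM after HT + RT (log2 3.12, standard error 0.07, edgeR adjusted p = 6.4e-11). FKBP4, an HSP90 partner of steroid receptors, had 206, 186 and 162 CPM in control and 806, 760 and 820 CPM after HT + RT (log2 2.16). Both genes were far higher in all treated libraries. CHORDC1, an HSP90 co-chaperone, rose from 152, 140 and 105 CPM to 314, 314 and 278 CPM (log2 1.24, standard error 0.11, edgeR adjusted p = 6.5e-06). AHSA1, which speeds the ATPase of HSP90, rose from 223, 218 and 192 CPM to 450, 486 and 464 CPM (log2 1.20). The inducible HSP90AA1 had 4010, 4110 and 3400 CPM in control and 7150, 7310 and 6890 CPM after HT + RT (log2 0.94, standard error 0.06, edgeR adjusted p = 6.2e-07), without overlap but below the threshold of size. The constitutive HSP90AB1 had a log2 change of 0.83 (edgeR adjusted p = 2.8e-08).

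Lists of chaperones in mitochondria, the chaperonin and the ER had medians near 0. Of 12 mitochondrial chaperones and proteases 2 rose and 0 fell, at a median log2 change of 0.04. HSPD1, the mitochondrial HSP60, had 1410, 1340 and 1200 CPM in control and 2880, 2780 and 2950 CPM after HT + RT (log2 1.18, standard error 0.06, edgeR adjusted p = 3.2e-08). HSPE1, its partner HSP10, had 233, 230 and 193 CPM in control and 419, 433 and 417 CPM after HT + RT (log2 1), and it loses the call without SAS Control replicate 3 or SAS HT + RT replicate 2 (log2 down to 0.92). HSPE1 also loses it with DESeq2, with RLE size factors, without the low count filter, without TMM, with all groups in 1 fit and with glmTreat, and the list then has 1 risen member with DESeq2, RLE or 1 fit. Neither gene had overlapping groups. HSPA9, the mitochondrial HSP70, had a log2 change of 0.10. Of 14 members of the cytosolic chaperonin and prefoldin 0 were altered. An adjusted p under 0.05 with a small rise was reached by 7, beside 13.6% of all tested genes higher at that adjusted p. The largest of these rises was that of TCP1, a chaperonin subunit, at log2 0.79 (edgeR adjusted p = 5.4e-07). Of 22 listed ER chaperones and sensors of unfolded proteins 0 were altered, at a median log2 change of -0.03. The list does not hold SERPINH1, the ER chaperone that rose at log2 3.41. With an adjusted p under 0.05, 2 had a small rise and 6 a small fall, beside 13.6% of all tested genes higher and 11.5% lower. The sensor gene ERN1 was not called, at log2 0.67 to 0.84 when 1 library is left out (edgeR adjusted p up to 0.002). The study names ERN1 among the genes induced by HT and HT + RT. HSPA5, the HSP70 of the ER, had 938, 912 and 892 CPM in control and 752, 809 and 810 CPM after HT + RT (log2 -0.16, edgeR adjusted p = 0.024).

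The transcripts of the factors that switch on chaperone genes did not pass both thresholds. HSF1, the main heat shock factor, had 190, 178 and 189 CPM in control and 184, 194 and 182 CPM after HT + RT (log2 0.06, edgeR adjusted p = 0.45), with overlapping groups. HSF2, its relative, had a log2 change of -0.47 (edgeR adjusted p = 0.0093), and HSBP1, which binds HSF1, one of 0.39. These values concern RNA only. By western blot the study reports a strong and passing rise of HSF1 protein, total and phosphorylated, in both lines after HT and HT + RT.

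**Figure D2:**
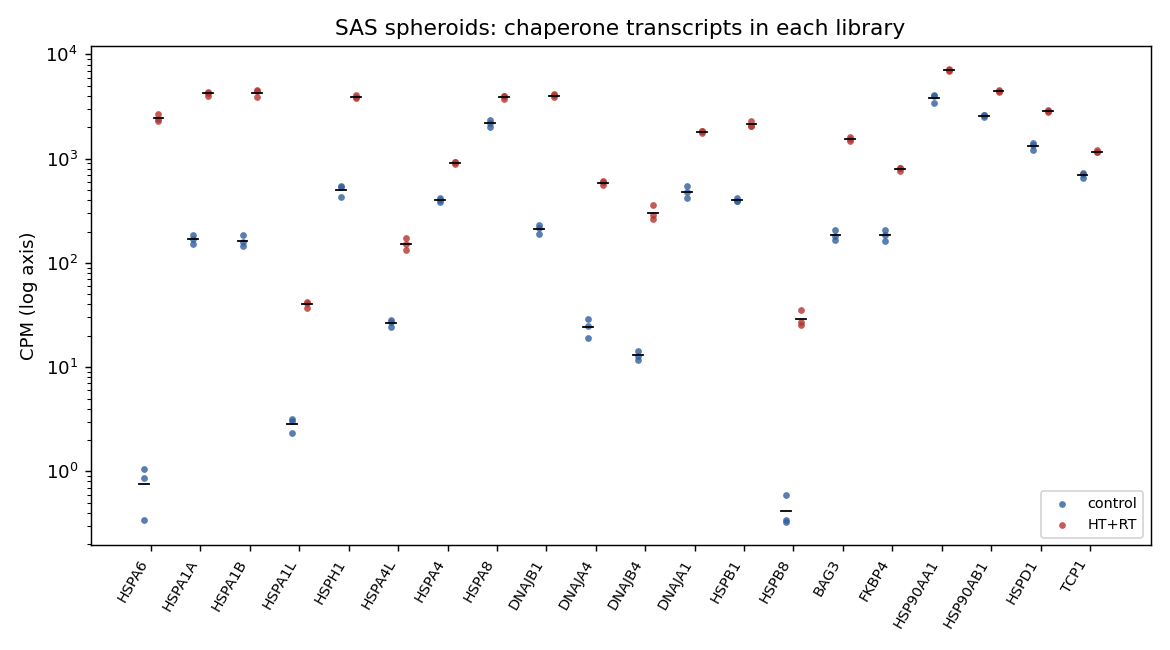
CPM on a log axis of 20 chaperone genes in each library of SAS Control (blue) and SAS HT + RT (red), with black bars at group means. The treated dots stand above the control dots for every gene, furthest for HSPA6.

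Ubiquitin marks damaged proteins for the proteasome. Some genes of the ubiquitin list rose while those of the proteasome did not. Of 11 ubiquitin and adaptor genes 3 rose and 0 fell, at a median log2 change of 0.17. UBB, a ubiquitin gene, had 582, 490 and 472 CPM in control and 1380, 1280 and 1420 CPM after HT + RT (log2 1.45, edgeR adjusted p = 4.4e-08). ZFAND2A, a stress regulator of the proteasome, had 19, 14.1 and 15.3 CPM in control and 272, 257 and 249 CPM after HT + RT (log2 4.05, standard error 0.09, edgeR adjusted p = 7.7e-11). For both genes, all treated libraries lay above all control libraries. Of 31 proteasome subunits 0 were altered, with log2 changes from -0.12 for PSMB2 of the core particle to 0.18 for PSMD14 of the lid, and a median of 0.05.

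The integrated stress response slows translation and switches on repair and amino acid genes. A few of its genes rose, but the transcript of the upstream factor ATF4 did not. This concerns RNA only: the study reports by western blot a fast and passing rise of ATF4 protein in both lines after HT and HT + RT. Of 18 tested, 4 rose and 0 fell, at a median log2 change of 0.18. ATF3, a stress transcription factor, had 6.14, 7.24 and 9.08 CPM in control and 42.5, 40.5 and 35.1 CPM after HT + RT (log2 2.45, standard error 0.14, edgeR adjusted p = 2.1e-07). PPP1R15A, which restarts translation, had 96.1, 120 and 114 CPM in control and 421, 435 and 385 CPM after HT + RT (log2 1.96, standard error 0.09, edgeR adjusted p = 1.8e-08). Groups did not overlap for either gene. CHAC1, which degrades glutathione, rose from 3.59, 4.67 and 1.47 CPM to 8.92, 13.4 and 10.8 CPM (log2 1.81, standard error 0.29, edgeR adjusted p = 0.00084). The stress sensor SESN2 was at log2 1.16, and 0.99 without SAS Control replicate 1. ATF4 itself was at log2 -0.10 (edgeR adjusted p = 0.36), and DDIT3, a factor of stress death, at 0.61 (edgeR adjusted p = 0.0013).

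Of 12 targets of the oxidative stress factor NRF2, 1 rose and 0 fell, at a median log2 change of 0.01. HMOX1, which degrades heme, had 1.03, 0.969 and 0.825 CPM in control and 5.33, 5.81 and 4.45 CPM after HT + RT (log2 2.50, standard error 0.23, edgeR adjusted p = 9.4e-06), without overlap. NQO1, a quinone reductase, was at log2 -0.06, and GCLC, which makes glutathione, at -0.41.

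**Figure D3:**
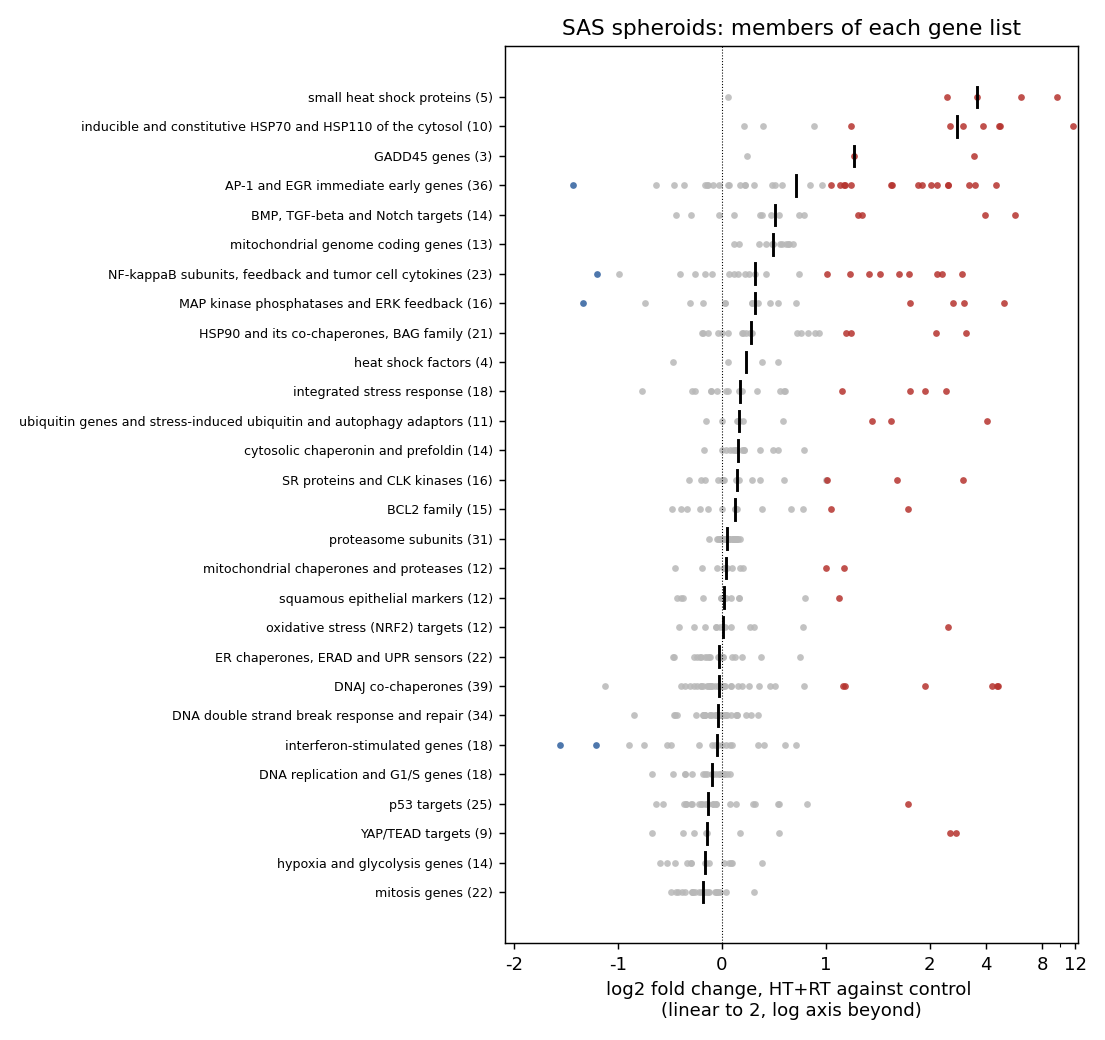
Log2 fold change of HT + RT over control in SAS spheroids for the members of each gene list (number tested in brackets), with altered members in red or blue, others in grey and a black bar at the list median. HSP70 and small heat shock protein genes stand furthest right, and most other lists centre near 0.

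Immediate early genes are switched on within minutes of a stimulus without new protein synthesis. Members of several classes rose, among them the AP-1 subunits FOS, FOSB and JUN and the zinc finger factor EGR2, whereas the AP-1 subunits JUNB, JUND and FOSL1 and the zinc finger factors EGR1 and EGR3 were not called upward. Of 36 tested, 16 rose and 1 fell, at a median log2 change of 0.71 beside 0.00 over all tested genes. Demanding at least 10 counts in every library left 34 members, 14 risen and 1 fallen, at a median of 0.56. The summed level of the 36 genes was 3320, 3790 and 3900 CPM in control and 6560, 6590 and 6190 CPM after HT + RT. FOS, a subunit of AP-1, had 11.4, 11.9 and 27.8 CPM in control and 207, 156 and 189 CPM after HT + RT (log2 3.49, standard error 0.27, edgeR adjusted p = 2.3e-06). IER5, a cofactor of HSF1, had 210, 203 and 167 CPM in control and 1880, 1650 and 1710 CPM after HT + RT (log2 3.23, standard error 0.08, edgeR adjusted p = 2.1e-10). Both were well above control in all treated libraries. NR4A1, an orphan nuclear receptor, had 8.43, 9.46 and 8.02 CPM in control and 53, 41.9 and 46.4 CPM after HT + RT (log2 2.50). JUN, the partner of FOS, had 104, 136 and 120 CPM in control and 262, 248 and 276 CPM after HT + RT (log2 1.18, standard error 0.09, edgeR adjusted p = 2.8e-06). Neither had overlapping groups.

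Other members went different ways. EGR1, a zinc finger factor of growth signals, had 332, 382 and 808 CPM in control and 578, 564 and 573 CPM after HT + RT (log2 0.22, standard error 0.25, edgeR adjusted p = 0.58). Control replicate 3 lay above all treated libraries and the other control libraries lay below them. EGR2, its relative, had 2.23, 2.39 and 3.36 CPM in control and 9.26, 7.25 and 7.61 CPM after HT + RT (log2 1.64, standard error 0.20, edgeR adjusted p = 1e-04), higher in all treated libraries. EGR3, another relative, had 67.2, 80.8 and 90.5 CPM in control and 54.4, 51.2 and 43 CPM after HT + RT (log2 -0.63, edgeR adjusted p = 0.002). IER3, a survival gene of the same class, had 135, 158 and 134 CPM in control and 49.1, 57.8 and 46.3 CPM after HT + RT (log2 -1.43, standard error 0.09, edgeR adjusted p = 6.2e-07). Treated libraries were lower than all control libraries for EGR3 and IER3. Control replicate 3 was also the highest control library for FOS, for FOSB, an AP-1 subunit (1.52, 2.57 and 4.66 CPM), and for ZFP36, which destabilizes mRNA (15.8, 15.6 and 29.9 CPM). After HT + RT FOSB had 12.6, 15.6 and 19.1 CPM and ZFP36 had 46.4, 48.6 and 45.1 CPM, above all control libraries.

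MAP kinase phosphatases and related genes damp the kinases that drive immediate early genes. Of 16 tested, 4 rose and 1 fell, beside 5.76% and 0.596% of all tested genes, at a median log2 change of 0.32. Demanding at least 10 counts in every library left 15 members, 3 risen and 1 fallen, at a median of 0.3. DUSP1, a nuclear phosphatase of stress kinases, had 68.8, 84.7 and 78.5 CPM in control and 260, 269 and 254 CPM after HT + RT (log2 1.81). DUSP2, a nuclear relative, had 25.3, 32.3 and 36.8 CPM in control and 191, 209 and 182 CPM after HT + RT (log2 2.67). DUSP6, the ERK phosphatase of the cytosol, had 169, 186 and 153 CPM in control and 61.7, 79.8 and 52.7 CPM after HT + RT (log2 -1.34, standard error 0.13, edgeR adjusted p = 1.4e-05). DUSP1 and DUSP2 were thus high and DUSP6 low in all treated libraries, while DUSP5, another nuclear phosphatase, was at log2 0.54 with overlapping groups. Of 3 GADD45 genes, which encode stress sensors, 2 rose: GADD45B, from 28, 29.6 and 29.1 CPM to 61, 81 and 59.4 CPM (log2 1.27), and GADD45G (log2 3.44), while GADD45A was at 0.24. Under the same demand of 10 counts the GADD45 list has 2 members, 1 risen, and a median of 0.77.

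NF-kappaB drives inflammatory genes. Some of its targets rose, and its subunits did not. Of 23 genes of NF-kappaB and cytokines, 9 rose and 1 fell, at a median log2 change of 0.32. NFKBIZ, a nuclear cofactor of NF-kappaB, had 4.24, 5.76 and 6.31 CPM in control and 44.2, 40.9 and 40.4 CPM after HT + RT (log2 2.99, standard error 0.13, edgeR adjusted p = 2.2e-08). The cytokine gene IL6 had 3.15, 4.39 and 2.12 CPM in control and 14.9, 18.5 and 13.4 CPM after HT + RT (log2 2.32). IL1A, a cytokine of epithelial cells, had 79.1, 94.8 and 73.8 CPM in control and 35.2, 40.5 and 28.1 CPM after HT + RT (log2 -1.20, edgeR adjusted p = 3.6e-05). NFKBIZ and IL6 were above control in all treated libraries, and IL1A was below. The chemokine CXCL8 (log2 2.19), the cytokine IL11 (1.80), the NF-kappaB inhibitor TNFAIP3 (1.71) and the adhesion gene ICAM1 (1.52) also rose. The subunits NFKB1 and RELA were at log2 0.12 and -0.09, and the inhibitor NFKBIA at -0.16. CCL20, a chemokine among the 9, was at log2 1.01 and loses its call without SAS Control replicate 1 or 3 or without SAS HT + RT replicate 2 or 3 (log2 down to 0.84). CCL20 also loses its call with DESeq2, with limma, with the replicate block, without the low count filter, without TMM and with glmTreat. The list then has 7 risen and 2 fallen members with DESeq2, 8 risen and 1 fallen with the block, and 8 risen and 2 fallen without TMM.

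Few genes tied to DNA damage passed the thresholds at 0.5 h, as among all tested genes. Of 25 p53 targets 1 rose and 0 fell, beside 5.76% and 0.596% of all tested genes, at a median log2 change of -0.13. A further 4 had a small rise and 5 a small fall with an adjusted p under 0.05, beside 13.6% of all tested genes higher and 11.5% lower. PMAIP1, the death protein NOXA, had 30.3, 28.3 and 19.4 CPM in control and 83.6, 90.2 and 87 CPM after HT + RT (log2 1.79, standard error 0.12, edgeR adjusted p = 9.8e-07). CDKN1A, the cell cycle inhibitor p21, had 114, 104 and 99 CPM in control and 175, 188 and 179 CPM after HT + RT, below the threshold of size (log2 0.82, edgeR adjusted p = 2e-06). Neither gene had overlapping groups. MDM2, the inhibitor of p53, was at log2 -0.34, and SESN1, a stress sensor, at -0.63. Of 34 genes of double strand break repair 0 were altered, at a median of -0.04. The lowest was XRCC2, a recombination protein, with 38, 39.1 and 39.5 CPM in control and 21, 23.2 and 18.8 CPM after HT + RT (log2 -0.84, edgeR adjusted p = 5.2e-05), again without overlap.

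The BCL2 family decides between survival and death of a cell. Of 15 tested, 2 rose and 0 fell, at a median log2 change of 0.13, and the risen members were PMAIP1 and MCL1. MCL1, a short lived survival protein, had 443, 494 and 411 CPM in control and 909, 899 and 882 CPM after HT + RT (log2 1.05, edgeR adjusted p = 3.6e-07), without overlap, and is at log2 0.99 and not called without SAS Control replicate 3. BBC3, the p53 driven death protein PUMA, was at log2 -0.13 (edgeR adjusted p = 0.59).

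No cell cycle gene of the lists was altered. Of 22 mitosis genes 0 were altered, but 11 had an adjusted p under 0.05 with a small negative change, beside 11.5% of all tested genes with a lower level at that adjusted p, and the median log2 change was -0.18. CENPF, a kinetochore protein, was at log2 -0.49 and the mitotic kinesin KIF20A at -0.44, while UBE2C, which marks cyclins for degradation, was at 0.31. Of 18 replication genes 0 were altered, 4 had an adjusted p under 0.05 with a small negative change, at a median of -0.09, from -0.67 for CCNE2, a cyclin of S phase entry, to 0.08 for the helicase subunit MCM7. In bulk RNA fewer cells that express a gene and less of its RNA per cell cannot be told apart.

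Signaling lists outside the stress response held a few strong rises. Of 14 BMP, TGF-beta and Notch targets 4 rose and 0 fell, at a median log2 change of 0.51. With at least 10 counts demanded in every library the list has 12 members, 2 risen, and a median of 0.44. ID2, an inhibitor of differentiation factors, had 1.36, 0.684 and 1.77 CPM in control and 16.4, 18.9 and 21.1 CPM after HT + RT (log2 3.94, edgeR adjusted p = 2.2e-07), without overlap. BAMBI, a decoy receptor of BMP signals, had 0, 0.057 and 0 CPM in control and 0.932, 1.34 and 1.61 CPM after HT + RT (log2 5.71, standard error 0.70, edgeR adjusted p = 0.00012). The log2 change of BAMBI runs from 5.22 to 7.57 when 1 library is left out. ID2 and BAMBI were higher in all treated libraries, while ID1, the relative of ID2, was at log2 -0.03. Of 9 YAP/TEAD targets 2 rose and 0 fell, at a median of -0.14. CTGF, a matrix growth factor, had 7.18, 10.3 and 10.5 CPM in control and 58.3, 65.7 and 59 CPM after HT + RT (log2 2.76, edgeR adjusted p = 3.5e-08). ANKRD1, a nuclear cofactor of muscle, had 23.5, 25.9 and 7.72 CPM in control and 129, 127 and 69.2 CPM after HT + RT (log2 2.56, standard error 0.34, edgeR adjusted p = 0.00019). CYR61, the close relative of CTGF, had 894, 875 and 850 CPM in control and 782, 823 and 686 CPM after HT + RT (log2 -0.14, edgeR adjusted p = 0.12). CTGF and ANKRD1 were thus higher in all treated libraries, and CYR61 was lower in them by little.

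Among genes of splicing control, the kinases CLK1 and CLK4 rose, and their relatives CLK2 and CLK3 were not called. Of 16 SR protein and CLK genes 3 rose and 0 fell, at a median log2 change of 0.15. CLK1, a kinase of SR splicing factors, had 36.5, 42 and 43.7 CPM in control and 311, 309 and 329 CPM after HT + RT (log2 3.01, standard error 0.08, edgeR adjusted p = 2.1e-10). CLK4, its relative, had 17.3, 22.4 and 18.3 CPM in control and 56.7, 64.3 and 59.3 CPM after HT + RT (log2 1.69). Every treated library was above every control library for both kinases. The splicing activator TRA2A was at log2 1.01, and at 0.95 in the lowest of the fits without 1 library, losing its call without SAS Control replicate 1, SAS Control replicate 3 or SAS HT + RT replicate 2. TRA2A also loses it with DESeq2, without the low count filter, without TMM and with glmTreat, and the list then has 2 risen members with DESeq2.

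Of 18 tested interferon stimulated genes 0 rose and 2 fell, beside 5.76% and 0.596% of all tested genes, at a median log2 change of -0.05. Changes ran from -1.56 to 0.71, and 8 of the 18 were positive. A further 2 had a small rise and 3 a small fall with an adjusted p under 0.05, beside 13.6% of all tested genes higher and 11.5% lower. IFIT2, which binds foreign RNA, had 52.3, 38.3 and 32.8 CPM in control and 17.6, 11.5 and 11.6 CPM after HT + RT (log2 -1.56, standard error 0.19, edgeR adjusted p = 9.7e-05). IFIT3, its partner, had 51.6, 31.5 and 41.1 CPM in control and 19.8, 15 and 17.1 CPM after HT + RT (log2 -1.21). All treated libraries were below all control libraries for both genes. Of 14 hypoxia and glycolysis genes 0 were altered, at a median of -0.16, with the glucose transporter SLC2A1 at -0.45 and the vessel hormone ADM at -0.59.

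Most coding transcripts of mitochondrial DNA were higher by less than the threshold of size. Of 13 coding genes 0 were altered, at a median log2 change of 0.49. An adjusted p under 0.05 with a small rise was reached by 11, beside 13.6% of all tested genes higher at that adjusted p. The summed level of the 13 was 13200, 14900 and 17800 CPM in control and 21700, 23400 and 18100 CPM after HT + RT, so control replicate 3 came close to HT + RT replicate 3. As a share of all counts, mitochondrial genes were higher in control replicate 3 (1.715%) than in HT + RT replicate 3 (1.699%). Mitochondrial transfer RNA genes were not counted as a list, and those named here were picked after their values were seen. MT-TL1, which carries leucine, passed the thresholds, with 44.1, 46.9 and 58.6 CPM in control and 152, 152 and 119 CPM after HT + RT (log2 1.55, edgeR adjusted p = 2.6e-06). MT-TC, another of them, was not called, at log2 0.24 to 0.55 when 1 library is left out.

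Falls of single genes were moderate beside the rises. The lowest log2 change among the named genes was that of MAGEE1, a member of the melanoma antigen family, with 4.08, 3.76 and 4.3 CPM in control and 0.599, 1.28 and 0.57 CPM after HT + RT (log2 -2.22, standard error 0.30, edgeR adjusted p = 0.00021), without overlap. ZNFX1, a helicase that senses viral RNA, had 100, 83.9 and 99.4 CPM in control and 34.7, 33.7 and 35.7 CPM after HT + RT (log2 -1.39, standard error 0.08, edgeR adjusted p = 1.6e-07). PPP1R10, a nuclear anchor of protein phosphatase 1, had 87, 91.4 and 95.5 CPM in control and 30.3, 36.3 and 34.1 CPM after HT + RT (log2 -1.39, standard error 0.08, edgeR adjusted p = 1.8e-07). SIN3A, a scaffold of histone deacetylases, had 97.4, 92.2 and 114 CPM in control and 42.4, 41.9 and 40.9 CPM after HT + RT (log2 -1.23, standard error 0.08). Treated libraries were lower throughout for these 3 genes. HCAR3, a receptor of hydroxy fatty acids, had 6.58, 7.98 and 5.48 CPM in control and 1.86, 2.57 and 1.61 CPM after HT + RT (log2 -1.67, standard error 0.23, edgeR adjusted p = 0.00023). HCAR3 was low in all treated libraries. The WNT inhibitor DKK1 had the largest fall in CPM among altered genes, from 298, 272 and 315 to 117, 157 and 135 (log2 -1.06), and is at -0.97 and not called without SAS HT + RT replicate 1.

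The genes altered upward were in part short and lowly expressed transcripts. Of 12582 tested protein-coding genes 550 (4.37%) rose and 70 fell. Of 740 antisense genes 93 (12.6%) rose, of 531 lincRNA genes 63 (11.9%), of 621 pseudogenes 75 (12.1%) and of 59 small RNA genes 23 (39%). Their median control level was 30.7 CPM for protein-coding and 1.27 CPM for antisense genes. The shares are limited by the count filter, because a gene near absent in control is tested only if the treated libraries lift it over the filter. Single exon genes were 18.2% of those altered upward, 22.5% of those altered downward and 6.98% of all tested. The median gene length was 9.31 kb upward, 8.71 kb downward and 27 kb over all tested genes, and the median number of exons 4, 3 and 8. These values depend on the gene classes in each set. Among protein-coding genes alone the single exon shares were 5.27%, 14.3% and 1.7%, and the median lengths 14.4, 10.8 and 32.2 kb. Among the other genes the shares were 41.2%, 52.6% and 35.1%, and the lengths 3, 2.31 and 4.13 kb.

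Some rises lay beside another gene that rose. Of the genes altered upward 48 (5.57%) had a gene altered upward within 10 kb before them on the same strand, against 162 (1.08%) of all tested genes. A gene altered upward overlapped on the opposite strand for 67 (7.78%) of them, against 293 (1.96%) of all tested genes. These shares too depend on gene class. On the same strand they were 2.55% against 0.85% among protein-coding genes and 10.9% against 2.33% among the others. On the opposite strand they were 5.45% against 1.81% and 11.9% against 2.76%. Any tested gene lay within 10 kb before 34.5% of the genes altered upward, against 21.9% of all tested genes. PNLDC1 lies behind MRPL18, a mitochondrial ribosome gene that rose from 83.5, 79.9 and 73.3 CPM to 347, 340 and 345 CPM (log2 2.17, standard error 0.06, edgeR adjusted p = 2.3e-10). The pseudogene AC093591.3 (log2 7.36) lies within HSPA4L, and the readthrough gene HSPE1-MOB4 (log2 5.95) overlaps HSPE1. With 1 library left out AC093591.3 runs from log2 6.84 to 8.17 and HSPE1-MOB4 from 5.6 to 6.91. Counts of such neighbours may come from the same transcripts, and the strand setting of the counting is not given. Of 80 ribosomal protein genes 0 were altered, at a median log2 change of 0.13. Of 376 zinc finger (ZNF) genes 15 rose and 11 fell, at a median of 0.00.

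The share of counts from the genes altered upward by HT + RT was high after HT alone and near control after RT alone, as given above. The log2 change of HSPA1A was 4.69 after HT + RT, 4.56 after HT and -0.15 after RT. For the 36 immediate early genes the medians were 0.71, 0.51 and 0.39. CLK1 was at log2 3.01 after HT + RT and -0.59 after RT, and DUSP2 at 2.67 and 1.16 (edgeR adjusted p after RT = 0.0054). Tested against each other with edgeR, HT + RT and HT differed in 0 of 15341 genes (0%), with 673 genes at an unadjusted p under 0.05 and 3 genes called by DESeq2. Closest were NOTCH1, a receptor of cell contact signals, and UBE2D1, a ubiquitin conjugating enzyme. NOTCH1 had 104, 111 and 109 CPM after HT and 140, 143 and 144 CPM after HT + RT (log2 0.41, standard error 0.05, edgeR adjusted p = 0.051). UBE2D1 had 52.2, 63.8 and 64.8 CPM after HT and 85.9, 104 and 106 CPM after HT + RT (log2 0.72, standard error 0.09, edgeR adjusted p = 0.051). The groups of both genes did not overlap.

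With the replicate number as a block, 1523 of the 15341 genes had an unadjusted edgeR p under 0.05, beside 673 without the block. In that fit edgeR called 7 genes between HT + RT and HT, which are named because their values were seen: DLEU2L, MIR25, AC103706.1, FERMT3, MIR17HG, CHAC1 and ATF7IP2. CHAC1 had 3.21, 6.41 and 4.66 CPM after HT and 8.92, 13.4 and 10.8 CPM after HT + RT (log2 1.23 with the block, edgeR adjusted p = 0.00019). FERMT3, an integrin activator of blood cells, had 8.62, 6.62 and 7.05 CPM after HT and 13.1, 15.7 and 16.9 CPM after HT + RT (log2 1.06 with the block, edgeR adjusted p = 0.00053). MIR17HG, the host gene of a microRNA cluster, had 1.35, 1.67 and 2.11 CPM after HT and 5.39, 9.35 and 4.4 CPM after HT + RT (log2 1.88 with the block, edgeR adjusted p = 0.00058). All treated values of these 3 genes lay above those after HT alone. In control MIR17HG had 2.39, 6.96 and 3.24 CPM, which overlaps HT + RT, and after RT alone it had 6.88, 9.02 and 3.88 CPM.

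**Figure D4:**
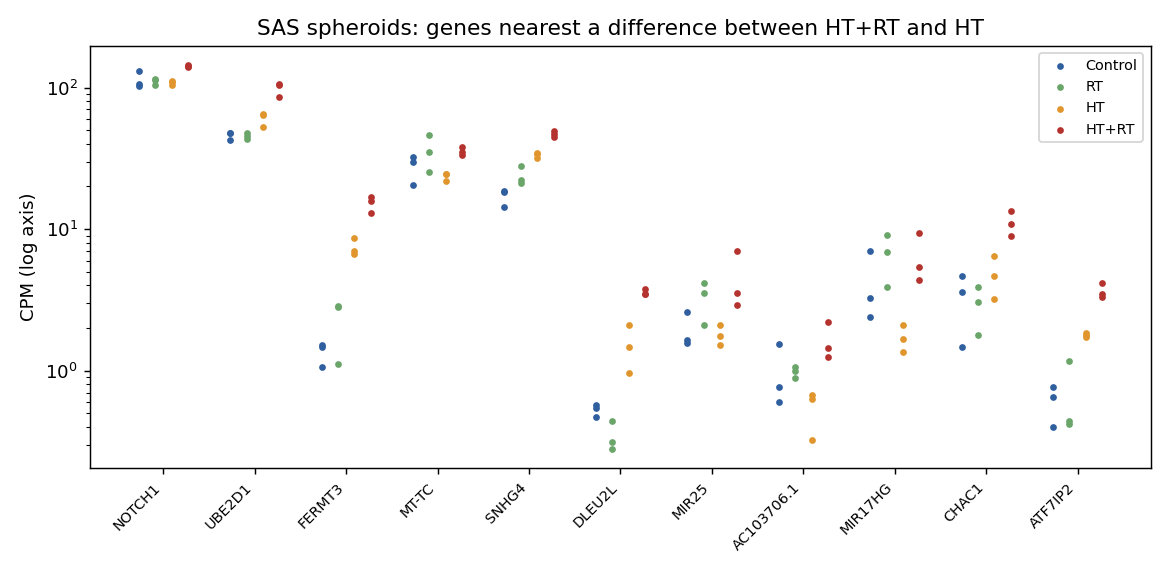
CPM on a log axis of 11 genes in each SAS library of control, RT, HT and HT + RT (colors), being the 5 genes with the smallest p between HT + RT and HT and those called with the replicate block. UBE2D1, FERMT3 and SNHG4 step up from control to HT and again to HT + RT, while for NOTCH1 the HT dots lie within the range of control, and for MIR17HG below it.

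The HT + RT response of SAS was tested against that of FaDu as a difference of log2 changes, with 10 Gy in SAS and 7 Gy in FaDu. Most genes did not differ past the thresholds, and the clearest list was that of immediate early genes. Of 17219 genes, 586 (3.4%) differed, 340 (1.97%) with the higher change in SAS and 246 (1.43%) with the lower. Of the 36 immediate early genes 24 had the lower change in SAS and 0 the higher, at medians of 0.71 in SAS and 1.82 in FaDu. EGR3 was at log2 -0.63 in SAS and 4.45 in FaDu (difference -5.12, standard error 0.28, edgeR adjusted p = 4.7e-08). ARC, a gene of neuronal plasticity, was at log2 2.18 in SAS and 7.72 in FaDu (difference -5.57, standard error 0.40, edgeR adjusted p = 4.9e-07). CYR61 was at log2 -0.14 in SAS and 3.88 in FaDu (difference -4.05, standard error 0.12, edgeR adjusted p = 2.2e-11). In CPM the mean of CYR61 was 18 in FaDu control and 261 after HT + RT, still below the 782, 823 and 686 of treated SAS. EGR1 had a mean of 93.7 CPM in FaDu control and 1550 CPM after HT + RT, while all 3 SAS control libraries already held 332 CPM or more.

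**Figure D5:**
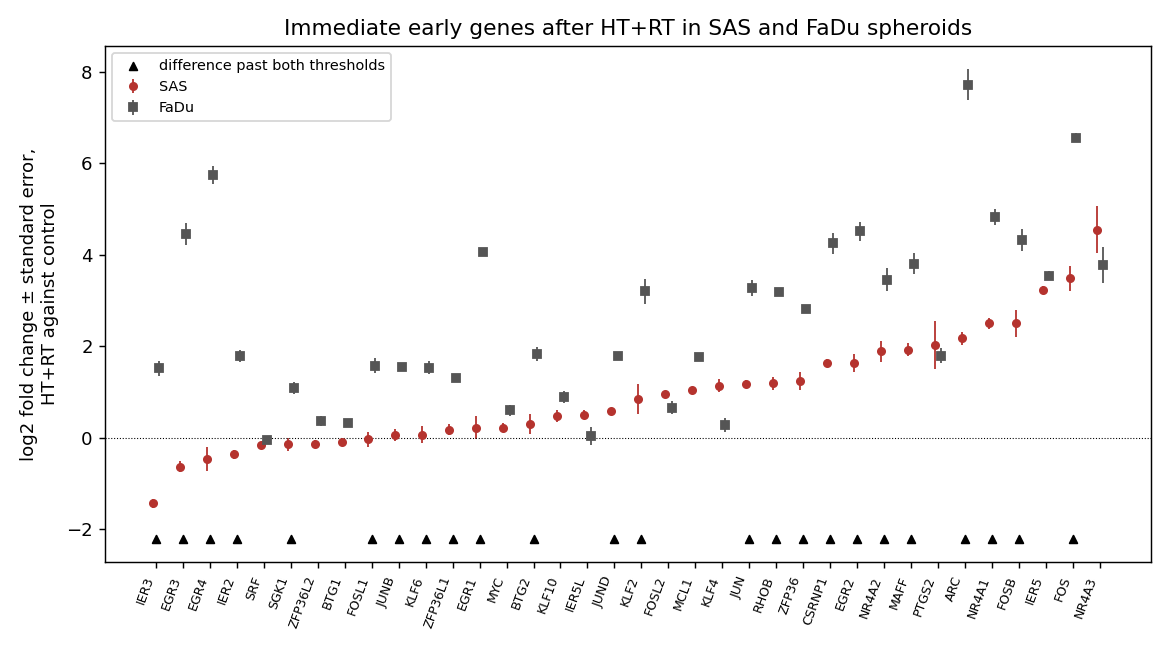
Log2 fold change of HT + RT over control with standard error for 36 immediate early genes in SAS (red circles) and FaDu (grey squares), with triangles where the difference passes both thresholds. FaDu squares stand above SAS circles for most genes.

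Chaperone genes differed in both directions. HSPA4 was at log2 1.24 in SAS and -0.03 in FaDu (difference 1.24, standard error 0.08, edgeR adjusted p = 1.9e-07). SERPINH1 was at log2 3.41 in SAS and 1.87 in FaDu (difference 1.51, edgeR adjusted p = 2.4e-07). Both genes had the higher change in SAS. The stress sensor SESN3 had 0, 0.342 and 0.118 CPM in SAS control and 9.99, 9.3 and 12.6 CPM after HT + RT, and was at log2 6.12 in SAS and 0.33 in FaDu (difference 5.76). With 1 library left out its SAS change runs from 5.52 to 7.43 and the difference from 5.22 to 7.14. Of 10 HSP70 and HSP110 genes 3 had the higher change in SAS and 1, HSPA6, the lower (difference -1.73), which loses its call without FaDu Control replicate 3, SAS Control replicate 1 or SAS Control replicate 3 (edgeR adjusted p up to 0.086). Of 6 small heat shock protein genes 2 had the higher change in SAS, CRYAB and HSPB8 (difference 3.33), and 0 the lower. With its 0 control counts at the floor, CRYAB has a difference of at least 4.38, beside 7.54 in the fit. DNAJ genes differed in 1 of 39 members, and HSP90 genes with co-chaperones in 0 of 21. HSPH1, 1 of the 3, is at a difference of 1.09, and at 0.98 and not called without FaDu Control replicate 1.

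The data have limits. Each group holds 3 libraries of a cultured line at 1 time point, 0.5 h after treatment, so later changes and proteins were not measured in these libraries. Standard errors and p-values measure the spread between these samples. Genes near 0 in control have fold changes that depend on few counts. SAS and FaDu received different doses, so line and dose cannot be separated. Near identical genes may share reads, and overlapping or antisense genes cannot be assigned with certainty. Bulk RNA does not tell the rim of a spheroid from its core.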

How the data were processed

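RNA of SAS and FaDu spheroids was sequenced in 24 libraries, 3 for each of 8 groups. The authors deposited raw counts per gene for pairs of groups, and a normalized signal, which they made by dividing the counts with DESeq2 size factors. The aligner, the strand setting and the build of the counting are not given in the sources used here, and the submitters' processing notes list mm9 although the gene identifiers are human Ensembl. Raw counts were joined over the tables, in which repeated control columns were identical, and named with GENCODE release 29. Of 57500 genes, 602 were not in that release.

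Library sizes are given in the report. CPM use TMM factors over all 24 libraries. Each comparison was fitted in R 4.3.3 with edgeR 4.0.16 (TMM, filterByExpr at a minimum count of 10, quasi-likelihood F test, Benjamini-Hochberg adjustment), and the standard error is the log2 change over the root of F. HT + RT was compared with control and with HT in SAS, and the SAS change was compared with the FaDu change as an interaction. The code was tested on simulated data with known changes. Alternatives used DESeq2 1.42.0 and limma 3.58.1 (on log2 of the deposited normalized counts, pseudocount 1), other filters, thresholds and normalizations, and omission of each library. A gene with 0 counts in a group was set at a floor of 3 counts over that group.

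Same-numbered libraries deviated together, with correlations of 0.15, 0.15 and 0.25 against control and 0.19, 0.17 and 0.30 against HT, so the fits were repeated with replicate as a blocking factor. The pairing comes from this check and not from the labels.

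Members and lists were chosen with earlier results of these data known. Named are the 10 highest and 10 lowest log2 changes among altered genes without overlap whose mean log2 CPM reaches 1, the 10 largest rises and falls in CPM of altered genes, all members of lists with up to 12 tested genes and the 3 highest, 3 lowest and 2 most abundant of longer lists. Named too are the 5 highest and 5 lowest differences between spheroid types, list members called there, and the 5 genes with the smallest p against HT. From these the text shows the values that fit its order. Other genes, such as neighbours, transfer RNA genes, some phosphatase genes and genes called with the block, were picked once their values had been seen. The comparison of FaDu treatments with each other was not analysed here.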

Additional observations from a re-analysis of the deposited data

Results flagged for a closer look

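The test of the difference between spheroid types called 586 genes, with 10 Gy in SAS and 7 Gy in FaDu. Values are the SAS log2 change minus the FaDu log2 change by edgeR. Among genes whose mean log2 CPM reaches 1 the highest were PNLDC1 at 7.88, CRYAB at 7.54, HSPE1-MOB4 at 6.07, KLHL35 at 5.94 and SESN3 at 5.76. Lowest were EGR4 at -6.23, ARC at -5.57, EGR3 at -5.12, ADAMTS1 at -4.41 and AC027290.2 at -4.32. PNLDC1, CRYAB and KLHL35 have 0 counts in SAS control, so their values and their order rest on an empty group. With SAS control at the floor of 3 counts the differences are at least 4.72 for PNLDC1, 4.38 for CRYAB and 2.8 for KLHL35. With 1 library left out HSPE1-MOB4 runs from 5.78 to 7.1 and SESN3 from 5.22 to 7.14.

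Among chaperone genes the test called HSPA6 at -1.73, HSPA4 at 1.24, HSPA4L at 1.92, HSPH1 at 1.09, HSPB8 at 3.33 and DNAJB4 at 1.39. Among stress response genes it called ATF3 at -2.54, PPP1R15A at -1.76, TRIB1 at -3.13, SESN2 at 1.19, HMOX1 at 2.28 and OSGIN1 at 1.16.

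Among immediate early genes it called FOS at -3.11, FOSB at -1.86, FOSL1 at -1.64, JUN at -2.13, JUNB at -1.52, JUND at -1.25, EGR1 at -3.88 and EGR2 at -2.9. It also called NR4A1 at -2.36, NR4A2 at -1.6, ZFP36 at -1.61, ZFP36L1 at -1.16, BTG2 at -1.55, IER2 at -2.18, IER3 at -2.98, KLF2 at -2.38 and KLF6 at -1.49. CSRNP1 was at -2.66, MAFF at -1.9, RHOB at -2.03 and SGK1 at -1.26.

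Among feedback and inflammatory genes it called GADD45B at -2.47, DUSP1 at -3.26, DUSP2 at -2.14, DUSP5 at -1.73, SPRED3 at 2.02, NFKBIA at -1.07, NFKBIZ at 1.16, CXCL1 at 1.13, CCL20 at -2.03, IL6 at -2.7 and IL1A at -1.44. In the remaining lists it called PLK2 at -1.03, BCL2L11 at 1.14, ID1 at 1.82, BAMBI at 3.49, CYR61 at -4.05, IFIT2 at -1.49, IFI27 at 3.71, CLK1 at 1.59, CLK4 at 1.65, ANKRD37 at -2.2 and COL1A1 at 3.76. IFI27 has a mean of 0.0393 CPM in SAS control, and its value runs from 3.21 to 6.55 when 1 library is left out.

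Some of these calls are lost when 1 library is left out. HSPA6 loses its call without FaDu Control replicate 3, SAS Control replicate 1 or SAS Control replicate 3 (edgeR adjusted p up to 0.086), and FOSB without SAS Control replicate 3 (edgeR adjusted p 0.13). PNLDC1 loses it without FaDu Control replicate 3 (edgeR adjusted p 0.057), and BAMBI without SAS Control replicate 1 or 3 (edgeR adjusted p up to 0.072, with values from 3.05 to 5.52). HSPH1 is at 0.98 without FaDu Control replicate 1, CXCL1 at 0.99 without SAS HT + RT replicate 2, and ZFP36L1 at -0.99 without SAS Control replicate 2. NFKBIA is at -0.93 at the least, losing its call without FaDu HT + RT replicate 2 or 3, SAS Control replicate 1 or SAS HT + RT replicate 3. NR4A2 loses its call in 9 of the 12 omissions (edgeR adjusted p up to 0.12), OSGIN1 in 8 (up to 0.097) and PLK2 in 8 (down to -0.92).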

How the results depend on the processing

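For HT + RT against control (950 altered, 861 up, 89 down), 2 settings gave clearly more calls: no low count filter 1436 (1312 up, 124 down) and adjusted p alone 3747 (2035 up, 1712 down). Library size only, without TMM, an alternative chosen after seeing the data, gave 920, with more down (137) and fewer up (783). Fewer calls came from 10 counts in every library, 552 (481 up, 71 down), and from glmTreat, which tests against the log2 threshold of 1, 436 (429 up, 7 down). Similar counts came from DESeq2 (1037), RLE size factors (946), all groups in 1 fit (1116), the replicate block (994) and limma (894). Leaving out 1 library at a time gave 935 to 1046 (846 to 957 up, 85 to 101 down).

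For HT + RT against HT (0 altered), DESeq2 gave 3, no low count filter 7, the replicate block 7, other settings 0, and leaving out 1 library 0 to 1.

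For the difference between spheroid types (586; 340 higher, 246 lower), adjusted p alone gave 1252 (737 and 515), 10 counts in every library 367 (208 and 159) and glmTreat 133 (81 and 52). DESeq2 gave 633, RLE 589, no low count filter 762 and all groups in 1 fit 642. Leaving out 1 library gave 487 to 636 (275 to 364 and 168 to 272). Same-numbered libraries correlated at 0.38, 0.18 and 0.17 in FaDu, where replicates 2 and 3 of different number reached 0.14 and 0.15, and at 0.09, 0.1 and 0.17 in SAS, and a replicate block gave 788 (453 and 335).

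Of 97 named altered genes 94 kept their call with DESeq2, 96 with RLE, 95 with the block, 71 with glmTreat and 91 to 96 without 1 library. With 10 counts in every library 75 kept it, 1 lost it and 21 were not tested. Of 65 named genes that differed between spheroid types 34 kept their call with glmTreat. With 10 counts in every library 53 of them kept it and 12 were not tested. The block changed the calls of CCL20 and ADAMTS1 and of the 7 genes against HT, and no other named call. No call reversed direction.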

Other observations

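Mitochondrial genes took 1.253%, 1.448% and 1.715% of all counts in SAS Control and 2.052%, 2.201% and 1.699% in SAS HT + RT. Of 376 tested zinc finger (ZNF) genes 15 rose and 11 fell, of 18 keratin genes 1 rose and 0 fell, and of 11 histone genes 1 rose and 0 fell. KRT16, the keratin that rose, was at log2 1.13, and at 0.90 and not called without SAS Control replicate 3. The cytokine gene IL1B was at log2 -0.99, and is called without SAS Control replicate 3 or SAS HT + RT replicate 2 (-1.06 at the lowest).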
